A study of Mus musculus with 16 samples.

Results

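Oxidative phosphorylation genes encode the subunits of the respiratory chain and of ATP synthase, and they lie in 2 genomes. The genes described here were those of the deposited count table whose symbols mark a subunit of complexes I to V. They numbered 92 of the 15119 genes of the table, of which 13 were encoded by mitochondrial DNA and 79 by nuclear chromosomes. By complex, the nuclear genes comprised 38 of complex I, 4 of complex II, 8 of complex III, 12 of complex IV and 17 of complex V, and the mitochondrial genes 7 of complex I, 1 of complex III, 3 of complex IV and 2 of complex V. The choice used symbols only and no measured value. It also took in Ndufb4c, which the annotation lists as a processed pseudogene.

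RNA came from livers of female mice that were wild type (WT) or lacked Arglu1, a transcriptional coregulator, in hepatocytes (LKO). All mice were aged to 9 months on chow. For a further 12 weeks they either stayed on chow or were given high-fat diet (HFD) of the formula TD. 88137. The 4 groups were thus WT on chow, LKO on chow, WT on HFD and LKO on HFD, with 4 libraries each. The labels give neither the Cre driver nor the deleted exons, and do not say that each library came from a separate animal, so that p-values measure the spread between libraries, which may be technical. Poly(A)-selected RNA was sequenced, and estimated counts per gene were deposited, with 19142612 to 25120565 counts per library. Arglu1 was at 41.2 ± 2.62 CPM (counts scaled to a common library size, SD, n = 4) in WT chow, 14.7 ± 1.56 in LKO chow, 42.2 ± 1.70 in WT HFD and 15.5 ± 1.53 in LKO HFD livers, so every LKO library matched its label.

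The respiratory chain passes electrons from NADH (complex I) and succinate (complex II) through ubiquinone, complex III and cytochrome c to oxygen at complex IV. Proton pumping by complexes I, III and IV drives ATP synthase, complex V. Mitochondrial DNA is transcribed as long precursors that are cut, mostly at tRNAs, into mRNAs, most of which carry short poly(A) tails. Complex II is wholly nuclear encoded. In the liver this machinery supports fatty acid oxidation, gluconeogenesis and urea synthesis.

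Some libraries stood apart before any group was compared. LKO chow replicates 1 and 2 differed from replicates 3 and 4. Each library was compared with the mean of the other 3 of its group, on the log2 scale. The median deviation over the 79 nuclear genes was -0.36 and -0.27 in LKO chow replicates 1 and 2 and 0.32 and 0.29 in replicates 3 and 4. Among the WT chow libraries, replicate 3 was at -0.45, with 77 of the 79 genes below the others, and replicate 4 at 0.38, with 2 below. WT HFD 2 was at 0.23 and WT HFD 1 at -0.14, again with 77 of the 79 genes below. Over all 13914 genes with a known length, Spearman's rho between deviation and transcript length was 0.31, 0.18, 0.31 and 0.20 in LKO chow 1, LKO chow 2, WT chow 3 and WT HFD 1, the libraries in which short transcripts were low. It was -0.25, -0.28, -0.28 and -0.24 in LKO chow 3, LKO chow 4, WT chow 4 and WT HFD 2. The genes share their library, so these coefficients describe the libraries only. Summed markers of other cells, all detected, split the LKO chow pairs too. Kupffer cell markers reached 444 and 386 CPM in LKO chow 1 and 2 and 94.7 and 195 CPM in LKO chow 3 and 4, against 167 to 555 CPM in the other groups. Endothelial cell markers reached 249 and 197 CPM in the first pair and 83.7 and 76.4 CPM in the second, against 77.6 to 271 CPM in the other groups. Red blood cell markers were at 346 and 485 CPM in the first pair and 1600 and 878 CPM in the second, against 462 to 1220 CPM in the other groups. The part of transcript length and of these cells in the chow values below was not tested, and for most chow results the value without 1 pair or the other is given. Summed skeletal muscle markers reached 437 CPM in LKO HFD 2 and 39.6 CPM in WT HFD 4, against at most 3.45 CPM elsewhere.

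Some of the genes also have near-identical copies elsewhere in the genome, which limit what their counts can show. A stretch of chromosome 1, chr1:24611535-24616197 in GRCm38 and annotated as a row of 7 unprocessed pseudogenes, repeats mt-Nd4 (in part), mt-Nd4l, mt-Nd3, mt-Co3, mt-Atp6, mt-Co2 and mt-Co1 (in part). The copy of mt-Co2, Gm28661, is identical over all 681 aligned bases, that of mt-Atp6, Gm10925, over 678, and that of mt-Nd3, Gm28438, differs by 1 base in 345. Stretches of 60 bases are shown. Those of mt-Co2 and mt-Atp6 are the same letter for letter in their copies, and a read lying wholly within such an identical part matches both loci equally. Those of mt-Nd3 and Gm28438 hold the base by which they can be told apart. Capitals mark this only base that separates mt-Nd3 from its copy, T3C, counted from the first base of mt-Nd3. The stretch of mt-Nd2, for which no copy of at least 97% identity was found, is the start of the gene that differed most clearly between genotypes. The sequences come from the GENCODE M21 transcripts and are written 5′ to 3′ on the strand of the gene.
mt-Nd3: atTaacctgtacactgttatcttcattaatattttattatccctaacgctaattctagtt
Gm28438: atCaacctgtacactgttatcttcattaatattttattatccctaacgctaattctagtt
mt-Co2: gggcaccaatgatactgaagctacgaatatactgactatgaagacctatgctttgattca
Gm28661: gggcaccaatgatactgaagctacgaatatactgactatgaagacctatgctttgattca
mt-Atp6: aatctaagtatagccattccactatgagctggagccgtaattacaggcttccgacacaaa
Gm10925: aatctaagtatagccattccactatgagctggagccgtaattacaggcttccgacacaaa
mt-Nd2: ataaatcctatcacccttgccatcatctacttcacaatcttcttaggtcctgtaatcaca

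The mitochondrially encoded genes were the more abundant by far. Per kilobase of transcript, the median level over all libraries was 4650 CPM per kb for the 13 mitochondrial genes (range 282 to 14700) and 121 CPM per kb for the 79 nuclear genes (range 1.52 to 520). The highest level was that of mt-Co1, the catalytic subunit of complex IV, at 14700 CPM per kb. It was followed by mt-Co3 at 8090, mt-Atp6 at 7540 and mt-Co2 at 7320 CPM per kb as deposited. With the counts of their copies added, the order of these genes turned, with mt-Co2 at 9420, mt-Atp6 at 9140 and mt-Co3 at 8170 CPM per kb, and mt-Co1 was at 16400. The next were mt-Cytb, the cytochrome b of complex III, at 6120, mt-Nd4 at 4770, mt-Nd1 at 4650, mt-Nd2 at 3950 and mt-Nd4l at 2370 CPM per kb. Each of these, as well as mt-Nd5 at 2040 and mt-Nd6 at 1760 CPM per kb, lay above every nuclear gene. As deposited, mt-Nd3, at 395, and mt-Atp8, at 282 CPM per kb, fell within the nuclear range. With its copy added mt-Nd3 was at 985 CPM per kb, above every nuclear gene. The gene mt-Atp8 is only 204 bases long and overlaps mt-Atp6 (chrM:7766-7969 and chrM:7927-8607), while levels were divided by the whole transcript length. The part of its length and of this overlap in its value was not tested. Its level therefore does not show that its RNA is as scarce as that of nuclear genes. The most abundant nuclear gene of each complex was Atp5b, the catalytic beta subunit of ATP synthase, at 520 CPM per kb, Uqcrq of complex III at 415, Cox6a1 of complex IV at 396, Ndufa4 at 362 and Sdha, the flavoprotein of succinate dehydrogenase, at 254 CPM per kb. Ndufa4 carries a complex I symbol but is known as a subunit associated with complex IV.

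On HFD, the mitochondrial share of the library was lower in LKO than in WT livers. The 13 genes took 6.72, 8.18, 6.99 and 7.05% of all counts in the 4 WT HFD libraries, and 5.48, 6.11, 6.09 and 5.16% in the 4 LKO HFD libraries, so that the groups did not overlap. Their means were 7.23 ± 0.65% and 5.71 ± 0.47% (SD, n = 4 each). The 79 nuclear genes took 0.928 ± 0.038% and 0.922 ± 0.011%. The log2 ratio of mitochondrial to nuclear counts, which needs no scaling between libraries, was 2.96 ± 0.069 in WT and 2.63 ± 0.12 in LKO livers, a difference of -0.33 with no overlap. With the counts of the copies added to the mitochondrial sum, the ratio was 3.03 ± 0.073 and 2.81 ± 0.088, also with no overlap. On chow the groups overlapped: the mitochondrial share was 6.98 ± 0.32% in WT and 6.73 ± 1.7% in LKO livers. The LKO chow libraries read 5.66, 4.93, 7.70 and 8.61%, the first pair below and the second pair above all 4 WT libraries (6.61 to 7.38%). The chow difference in log2 ratio was -0.21, and -0.03 or -0.38 without LKO chow 1 and 2 or without 3 and 4. It was -0.08 without WT chow 3, whose log2 ratio was 3.43 against 2.92 to 2.95 in the other WT chow libraries, and -0.11 without LKO chow 2. In bulk liver RNA, fewer cells of a type and less RNA per cell cannot be told apart.

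**Figure D1:**
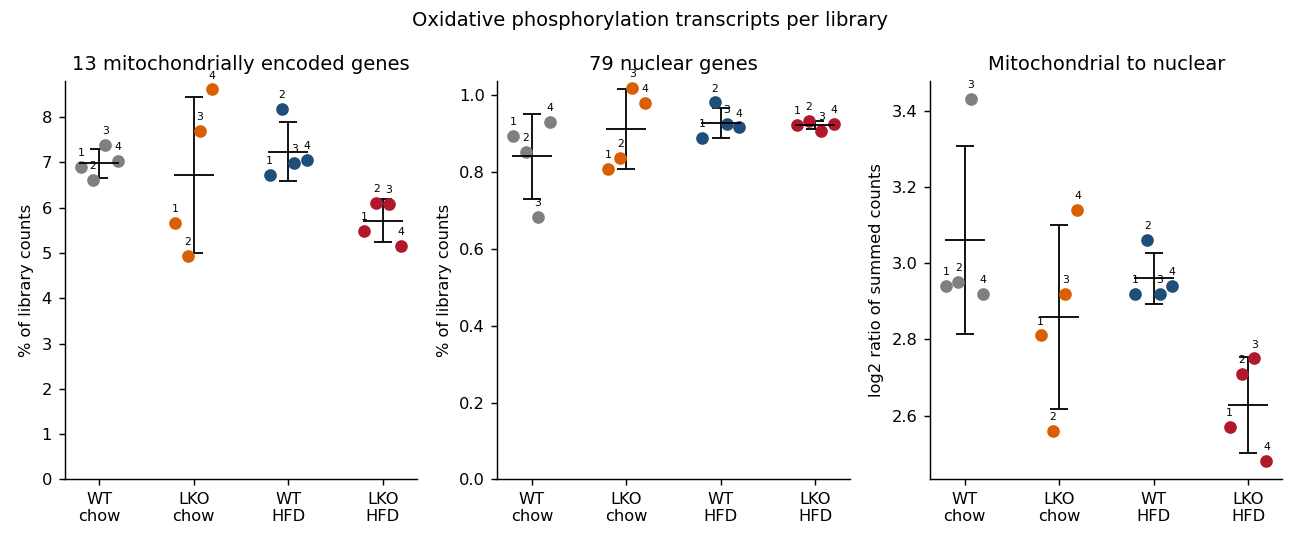
Share of library counts of the 13 mitochondrially encoded genes and of the 79 nuclear genes, in percent, and the log2 ratio of the summed counts, for each library by group. Points are libraries with their replicate number, and bars are the mean and SD of 4. The LKO HFD libraries, at 5.16 to 6.11% mitochondrial counts, lie below all WT HFD libraries, and the LKO chow libraries split into 2 low and 2 high ones.

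By gene, 5 of the 13 mitochondrial genes fell in LKO against WT livers on HFD and none rose (edgeR quasi-likelihood test, Benjamini-Hochberg adjusted p below 0.05 over 14434 genes). Of all genes tested, 7.57% were called lower in that comparison and 17.9% were called in either direction. All 13 passed the filter on low counts, as did all 79 nuclear genes. Every one of the 13 fold changes was below 0, with a median log2 fold change of -0.44 against -0.05 over the nuclear genes and -0.01 over all genes tested. In 8 of the 13 all 4 LKO libraries lay below all 4 WT libraries, where 12.7% of all genes tested did. These 8 include mt-Atp6 and mt-Nd3, for which the groups overlapped once the counts of their copies were added. The hepatocyte markers, all 6 detected, did not move together. Alb, for albumin, was at 46900 to 52800 CPM in WT HFD and 69400 to 83000 CPM in LKO HFD libraries. The other 5 summed to 14200 to 15700 CPM in WT HFD and 11100 to 12400 CPM in LKO HFD libraries. Of these, Ttr was at 3650 to 4370 and 2750 to 3230 CPM, and Serpina1c at 3010 to 3830 and 2420 to 2930 CPM. The groups overlapped for Apoa1 (2670 to 4440 and 2740 to 4350 CPM), Cps1 (2860 to 4070 and 2170 to 3020) and Tat (531 to 1190 and 385 to 571). Of the 5 adipocyte markers, Adipor2, which hepatocytes also express, was at 635 to 718 and 442 to 510 CPM, and the other 4 summed to 0.198 to 4.68 and 0.214 to 0.949 CPM. The part of these levels in the result was not tested.

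The gene with the clearest difference was mt-Nd2, a core subunit of the proton-pumping membrane arm of complex I, at chrM:3914-4951. It was at 4899, 4606, 5209 and 5241 CPM in WT chow, 2845, 2674, 3776 and 4360 CPM in LKO chow, 4598, 5481, 4542 and 4738 CPM in WT HFD, and 2875, 3420, 3492 and 2822 CPM in LKO HFD livers. Each of the 8 LKO libraries lay below each of the 8 WT libraries, across both diets. It was the only one of the 92 genes to do so, where 3.76% of all genes tested did. The log2 fold change was -0.62 (SE 0.14, edgeR adjusted p = 0.00454) on HFD and -0.55 (SE 0.14, edgeR adjusted p = 0.00809) on chow. Without LKO chow 1 and 2 the chow value was -0.30 and no longer called, and without LKO chow 3 and 4 it was -0.85 and called. A fit of only the groups compared called no mitochondrial gene on chow, so the chow call of mt-Nd2 was lost there.

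mt-Nd4l and mt-Nd4, further complex I subunits called lower on HFD, share 1 bicistronic mRNA. mt-Nd4l was at 729, 970, 791 and 788 CPM in WT HFD and at 556, 590, 583 and 439 CPM in LKO HFD livers. These groups did not overlap, and the log2 fold change was -0.60 (SE 0.153, edgeR adjusted p = 0.0107). On chow, mt-Nd4l was at 736 to 957 CPM in WT and 444, 512, 687 and 748 CPM in LKO livers, with the highest LKO library inside the WT range. The chow log2 fold change was -0.52 (SE 0.153, edgeR adjusted p = 0.0194), -0.26 without LKO chow 1 and 2, where the call was lost, and -0.84 without LKO chow 3 and 4. It was lost as well without WT chow 3 (-0.46), without LKO chow 1 alone (-0.40) or in the fit of only the groups compared. mt-Nd4 was at 6627 to 9349 CPM in WT HFD and 4871 to 5908 CPM in LKO HFD livers, a log2 fold change of -0.48 (SE 0.162, edgeR adjusted p = 0.0494). On chow it was -0.32 and was not called, with -0.03 without LKO chow 1 and 2 and -0.68, called, without LKO chow 3 and 4. mt-Cytb, the one mitochondrial subunit of complex III, was at 7429, 10110, 7866 and 7913 CPM in WT HFD and 5484, 6334, 6251 and 5247 CPM in LKO HFD livers. Its log2 fold change was -0.52 on HFD (SE 0.163, edgeR adjusted p = 0.0353) and -0.41 on chow (SE 0.163, edgeR adjusted p = 0.0781). The chow value of mt-Cytb was -0.13 without LKO chow 1 and 2, and -0.76 and called without LKO chow 3 and 4. The calls of mt-Cytb and mt-Nd4 lie near the threshold: leaving out any 1 of WT HFD 2, 3 or 4 or of the LKO HFD libraries lost both, at -0.41 to -0.56 and -0.36 to -0.52. The call of mt-Nd4 was also lost, at -0.48, without any 1 of the WT chow libraries or LKO chow 3, which are not in the groups compared. Each such fit repeated the filter, scaling, estimate of spread and adjustment, and their parts in the loss were not tested.

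The fifth called gene was mt-Atp6, a proton channel subunit of ATP synthase, and its call was lost once the copy on chromosome 1 was counted with it. As deposited, mt-Atp6 was at 5369, 6758, 5616 and 5733 CPM in WT HFD and 3533, 4108, 4904 and 2906 CPM in LKO HFD livers, a log2 fold change of -0.60 (SE 0.163, edgeR adjusted p = 0.0147). The copy, Gm10925, held 4.46 ± 3.1% of the counts of the pair in WT HFD and 36.0 ± 12% in LKO HFD libraries (SD, n = 4 each), without overlap. Its share ran from 0.394% in WT HFD 3 to 47.1% in LKO HFD 4. With the counts of the pair added, mt-Atp6 was at 5825, 7072, 5638 and 6047 CPM in WT HFD and 5920, 6472, 6122 and 5496 CPM in LKO HFD livers, and these groups overlapped. The log2 fold change of the sum was -0.03 (SE 0.151, edgeR adjusted p = 0.913).

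The same held for mt-Co2, which carries the copper centre of complex IV that receives electrons from cytochrome c. Its copy Gm28661 took between 0.159% (WT chow 3) and 49.6% (LKO HFD 4) of the counts of the pair, with group means of 18.0 ± 13%, 12.4 ± 9.7%, 17.7 ± 11% and 40.2 ± 9.3% in WT chow, LKO chow, WT HFD and LKO HFD livers. As deposited, mt-Co2 was the one mitochondrial gene called between the diets, lower on HFD within LKO livers by a log2 fold change of -0.72 (SE 0.179, edgeR adjusted p = 0.0408). With the copy added it was at -0.22 (SE 0.168, edgeR adjusted p = 0.538). For LKO against WT on HFD, mt-Co2 read -0.39 as deposited and 0.07 with the copy, neither of them called. mt-Nd3, with 52.4 to 69.6% of its pair in the copy, read -0.48 as deposited and -0.20 with the copy on HFD, also uncalled. The copies of mt-Nd4 and mt-Nd4l took almost no counts, and none was found for mt-Nd2 and mt-Cytb at this identity, so their 4 calls on HFD stood as they were. With all copies added, 12 of the 13 fold changes on HFD lay below 0, with a median of -0.20.

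**Figure D2:**
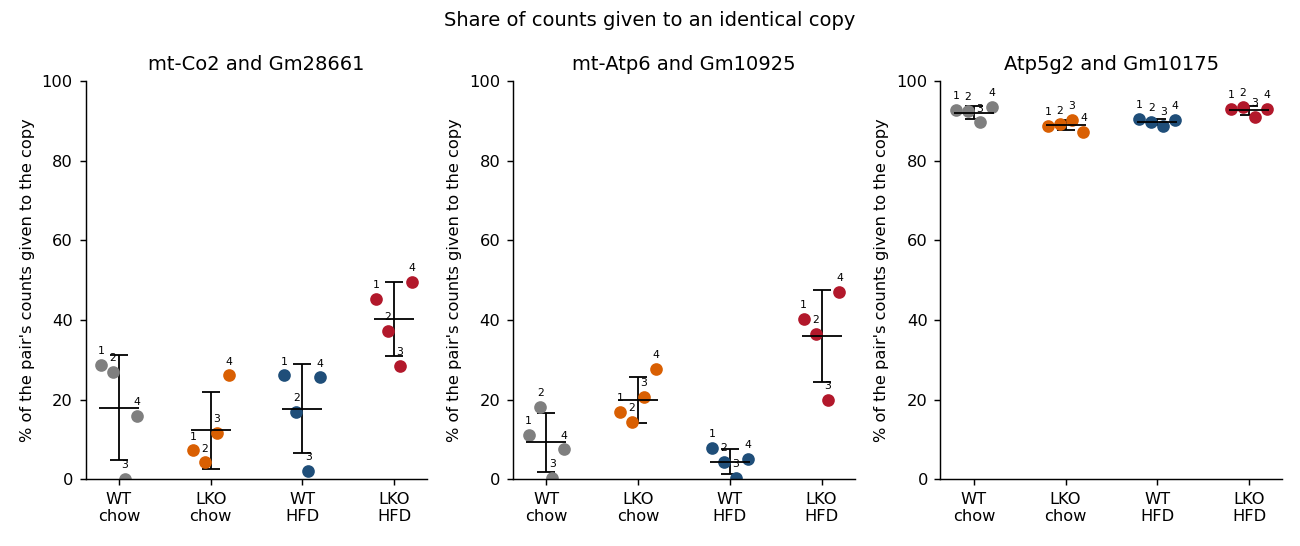
Share of the counts of a gene and its identical copy that was given to the copy, in percent, for mt-Co2, mt-Atp6 and the nuclear gene Atp5g2, by library and group. Points are libraries with their replicate number, and bars are the mean and SD of 4. The share of Gm10925 is 7.83% or less in every WT HFD library and 19.9% or more in every LKO HFD library.

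With the copies added, the HFD log2 fold changes, in the order of the mitochondrial genome, were -0.06 for mt-Nd1, -0.62 for mt-Nd2, -0.20 for mt-Co1, 0.07 for mt-Co2, -0.19 for mt-Atp8, -0.03 for mt-Atp6, -0.14 for mt-Co3 and -0.20 for mt-Nd3. They then read -0.60 for mt-Nd4l, -0.48 for mt-Nd4, -0.44 for mt-Nd5, -0.39 for mt-Nd6, which alone is read from the other strand, and -0.52 for mt-Cytb. The chow values with copies were 0.19, -0.55, -0.08, 0.22, -0.12, -0.01, 0.01 and -0.13 from mt-Nd1 to mt-Nd3, and -0.52, -0.32, -0.19, -0.12 and -0.41 from mt-Nd4l to mt-Cytb. Standard errors ran from 0.139 to 0.196. Except for mt-Nd2, the genes from mt-Nd1 to mt-Nd3 lay nearer to 0 on HFD than those from mt-Nd4l to mt-Cytb. That grouping was made after the values were seen and has no test.

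**Figure D3:**
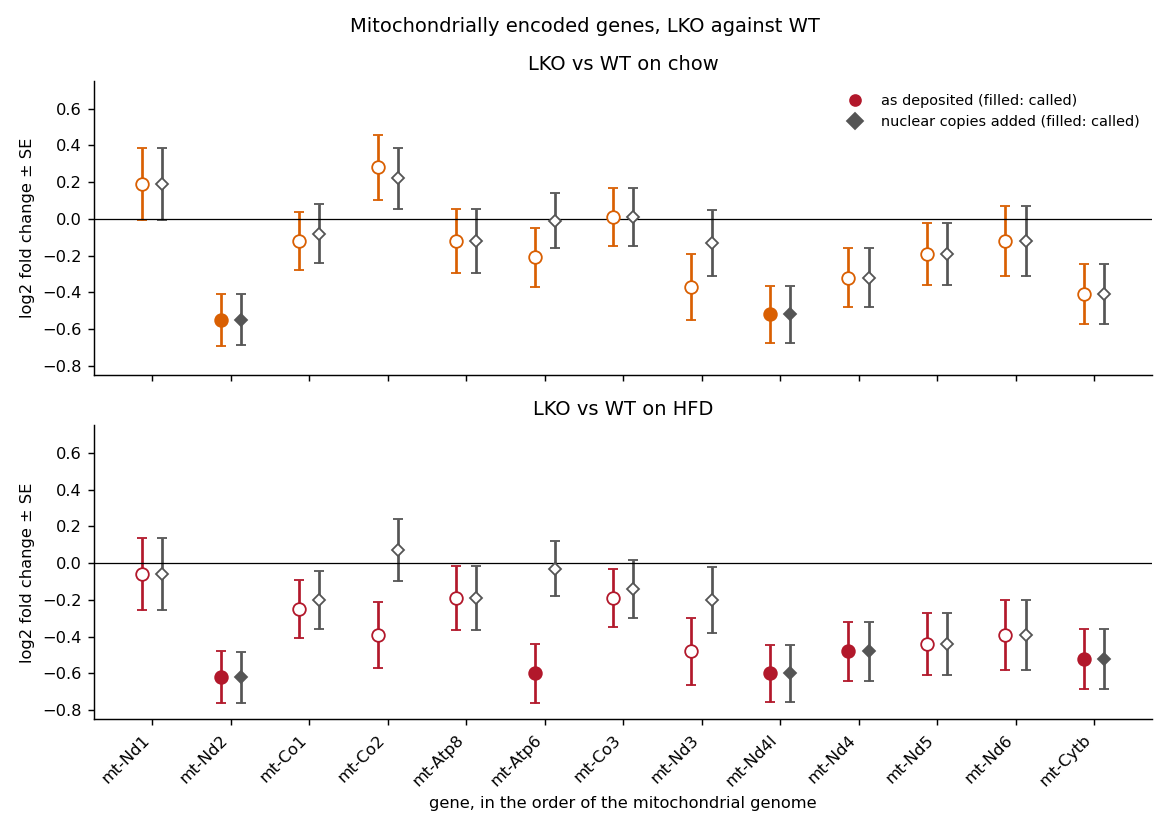
Log2 fold change of LKO against WT livers with its standard error for the 13 mitochondrially encoded genes, in genome order, on chow and on HFD. Circles are values as deposited and diamonds values with the counts of near-identical nuclear copies added, filled where called by edgeR. On HFD the filled circle of mt-Atp6, at -0.60, has an open diamond at -0.03, while mt-Nd2, mt-Nd4l, mt-Nd4 and mt-Cytb stay filled.

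Ratios between mitochondrial mRNAs within a library do not depend on its scaling or on the total mitochondrial RNA. mt-Nd1 and mt-Nd2 are neighbours on the genome and neither has a near-identical copy among the genes compared. The ratio of mt-Nd1 to mt-Nd2 counts was 0.746, 0.969, 0.965 and 0.954 in WT chow and 0.947, 0.729, 0.839 and 0.924 in WT HFD livers. It was 1.49, 1.12, 1.72 and 1.60 in LKO chow and 1.27, 1.20, 1.25 and 1.33 in LKO HFD livers. Every LKO library, the 2 pairs of LKO chow libraries included, lay above 1 and every WT library below 1. Group means were 0.908 ± 0.11, 1.48 ± 0.26, 0.86 ± 0.099 and 1.26 ± 0.053 (SD, n = 4) in WT chow, LKO chow, WT HFD and LKO HFD livers. The ratio of mt-Co1 to mt-Nd2 was 4.50 to 5.36 in the 8 WT and 5.60 to 7.08 in the 8 LKO libraries. Of the 78 ratios between 2 mitochondrial genes, 7 (8.97%) separated all LKO from all WT libraries as deposited, and 19 (24.4%) did so with copies added, 6 of them with mt-Nd2. Of the 3081 ratios between 2 nuclear genes of the set, 190 (6.17%) did. These ratios were singled out after their values were seen and share genes and libraries, so no p is given.

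**Figure D4:**
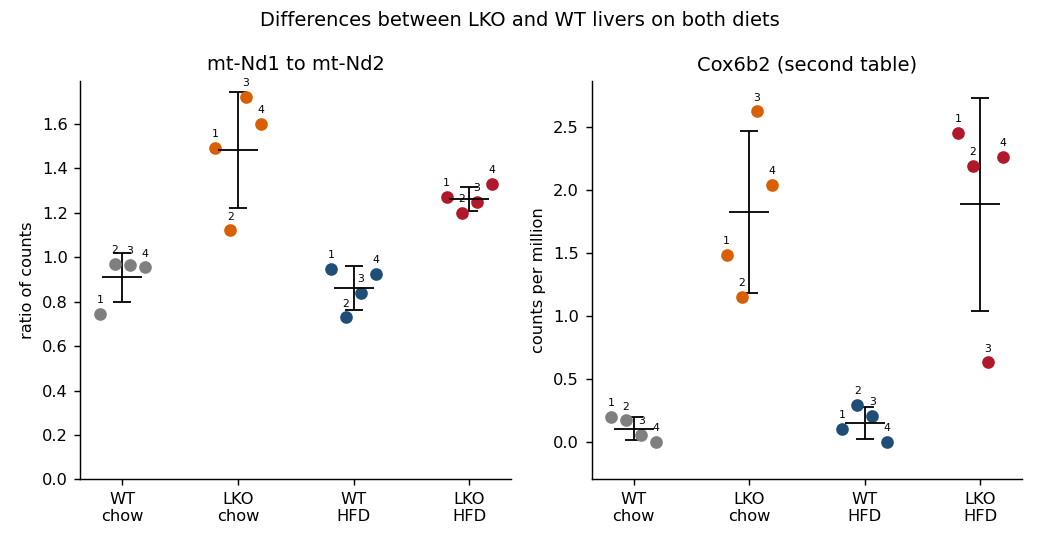
Ratio of mt-Nd1 to mt-Nd2 counts, and CPM of Cox6b2 from the second deposited table, by library and group. Cox6b2 passed the filter on low counts only through the LKO groups. Its values are shown as levels and not as a test of genotype. Points are libraries with their replicate number, and bars are the mean and SD of 4. All 8 LKO libraries have a ratio of 1.12 or more and all 8 WT libraries one of 0.969 or less.

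Few nuclear genes were called. On chow, 4 of the 79 rose and 4 fell in LKO livers, where 12.9% of all genes tested were called higher and 11.8% lower, so both shares lay below those of all genes. The median log2 fold change was 0.11 over the 79 genes and 0.02 over all genes. A fit of only the groups compared called 1 nuclear gene on chow, where 2152 of all 13954 genes tested were called. On HFD, 1 rose and 1 fell, where 10.3% and 7.57% of all genes were called. All LKO libraries lay above all WT libraries for 1 nuclear gene and below them for 3 on chow, against 11.4% and 9.98% of all genes, and for 4 and 9 on HFD, against 15.1% and 12.7%.

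Complex I, NADH dehydrogenase, is the largest complex of the chain. Ndufs1, the largest subunit, which carries iron-sulphur clusters of the NADH arm, was at 117, 112, 125 and 111 CPM in WT chow and 95.4, 96.5, 85.7 and 86.4 CPM in LKO chow livers. It fell on chow without overlap of the groups, by a log2 fold change of -0.35 (SE 0.0794, edgeR adjusted p = 0.0035). In LKO livers Ndufs1 rose on HFD, to 110 to 127 CPM, by a log2 fold change of 0.36 (SE 0.0793, edgeR adjusted p = 0.0241). This call between diets was lost without LKO chow 3 and 4 and without the libraries with muscle transcripts. A fit of only the groups compared lost it as well. On HFD the genotypes overlapped for Ndufs1, at -0.10 (edgeR adjusted p = 0.429), and its interaction was 0.25 (edgeR adjusted p = 0.544). Ndufc2, a small membrane-arm subunit, was at 41.9, 36.5, 30.7 and 45.9 CPM in WT and 43.2, 43.4, 59.1 and 58.7 CPM in LKO chow livers. Its log2 fold change was 0.40 (SE 0.129, edgeR adjusted p = 0.0318), and the high values are those of LKO replicates 3 and 4. Without these 2 libraries it read 0.16 and was not called.

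Complex II, succinate dehydrogenase, also acts in the tricarboxylic acid cycle. On chow 2 of its 4 genes fell. Sdha was at 479, 501, 450 and 504 CPM in WT chow and 440, 426, 374 and 334 CPM in LKO chow livers, without overlap, a log2 fold change of -0.30 (SE 0.0912, edgeR adjusted p = 0.0244). Sdhd, a membrane anchor, ran from 150 to 197 CPM in the WT chow libraries and from 133 to 149 CPM in those of LKO, again without overlap, a log2 fold change of -0.28 (SE 0.081, edgeR adjusted p = 0.0168). Sdhb and Sdhc read 0.11 and -0.09. On HFD none of the 4 was called by edgeR, with log2 fold changes of -0.12 to 0.07. Without LKO chow 3 and 4 the chow values were -0.16 for Sdha and -0.23 for Sdhd and neither was called.

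None of the 8 nuclear genes of complex III was called by edgeR in LKO against WT livers on either diet. The value farthest from 0 was that of Uqcr11 on chow, at 0.53 (SE 0.228, edgeR adjusted p = 0.104). It was at 39.2 CPM in WT chow 3 and 79.7 to 102 CPM in the other WT chow libraries.

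In complex IV, Cox7a2, the liver form of subunit 7a, was at 63.5, 64.7, 50.1 and 76.5 CPM in WT chow and 71.8, 71.3, 96.8 and 97.9 CPM in LKO chow livers. It rose by a log2 fold change of 0.41 (SE 0.13, edgeR adjusted p = 0.03), and read 0.17 without LKO chow 3 and 4, where the call was lost. Ndufa4 was at 118 to 165 CPM in WT and 159, 167, 211 and 214 CPM in LKO chow livers, a log2 fold change of 0.37 (SE 0.115, edgeR adjusted p = 0.026), and 0.17 without that pair. On HFD these genes read 0.29 and 0.30, with all 4 LKO above all 4 WT libraries but edgeR adjusted p of 0.139 and 0.0787. Cox7a2l, which joins complexes III and IV into supercomplexes, was the nuclear gene that rose on HFD. It was at 81.8, 65.1, 70.3 and 71.7 CPM in WT HFD and 88.1, 86.5, 89.5 and 102 CPM in LKO HFD livers, without overlap, a log2 fold change of 0.34 (SE 0.0981, edgeR adjusted p = 0.0212). The call was lost without any 1 of WT HFD 2, 3 or 4 or LKO HFD 4 (0.29 to 0.34).

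In complex V, the only call in either genotype comparison was Atp5g2, which encodes the c subunit of the rotor ring, and it does not hold with its copy. Gm10175, a transcribed processed pseudogene at chr7:23946646-23947290, matches Atp5g2 transcripts without a mismatch over 645 bases and took 87.3 to 93.6% of the counts of the pair in every library. A stretch of 60 of these bases is shown because its letters are the same at both loci.
Gm10175: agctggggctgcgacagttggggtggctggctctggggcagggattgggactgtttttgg
As deposited, Atp5g2 was at 7.78, 6.83, 8.500 and 7.003 CPM in WT chow, 9.82, 9.37, 9.16 and 11.5 in LKO chow, 9.41, 10.47, 10.2 and 9.48 in WT HFD and 6.59, 5.81, 8.07 and 5.90 CPM in LKO HFD livers. Its log2 fold change was 0.40 on chow (SE 0.125, edgeR adjusted p = 0.025), -0.59 on HFD (SE 0.125, edgeR adjusted p = 0.00299) and -0.59 for HFD against chow in LKO livers (SE 0.125, edgeR adjusted p = 0.0194). With Gm10175 added these values were -0.12, -0.11 and 0.01, with edgeR adjusted p of 0.374, 0.421 and 0.982. The other c subunit genes, Atp5g1 and Atp5g3, read 0.16 and 0.18 on chow and were not called.

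**Figure D5:**
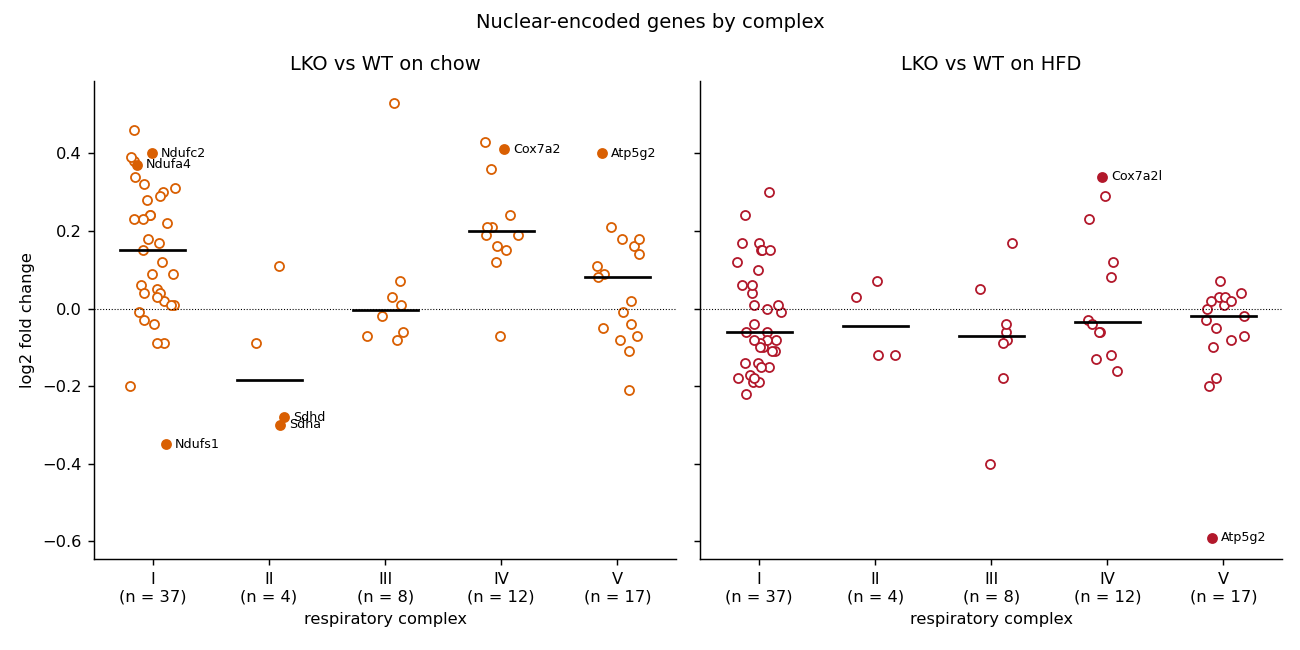
Log2 fold change of LKO against WT livers for 78 of the 79 nuclear genes by complex, on chow and on HFD. Points are genes, filled and named where called by edgeR, and lines are medians of the genes drawn in each complex. Calls on chow lie in both directions in complex I, are lower in complex II and are higher in complexes IV and V. Ndufa4 is drawn under complex I, by its symbol. On HFD only Cox7a2l and Atp5g2 are filled.

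The chow values of the nuclear genes depended on which LKO chow libraries were used. Without LKO chow 1 and 2, 30 nuclear genes were higher and 4 lower, and the median log2 fold change was 0.36. Of all 14673 genes tested in that fit, 2413 were called higher and 2623 lower, 34.3% in either direction. Without LKO chow 3 and 4, none was higher and 2 were lower, with a median of -0.16. Of all 14647 genes tested in that fit, 1312 were called higher and 1061 lower, 16.2% in either direction. The calls of the mitochondrial genes on chow turned with the pair left out. Without LKO chow 1 and 2, 3 of the 13 were higher and none lower, with a median of 0.11. Without LKO chow 3 and 4, 10 were lower and none higher, with a median of -0.60. On HFD the libraries of a group lay closer together: the summed nuclear share ran from 0.908 to 0.934% in LKO HFD and 0.889 to 0.981% in WT HFD livers.

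Few of the genes were called between diets. In WT livers none of the 13 mitochondrial and none of the 79 nuclear genes was called by edgeR between HFD and chow, where 2.04% of all genes were. At an unadjusted p below 0.05, there were 0 mitochondrial genes and 1 nuclear gene, and DESeq2 and limma voom called 0 in both sets. The median log2 fold changes were -0.04 and 0.06. In LKO livers, mt-Co2 and Atp5g2, both described above with their copies, were lower on HFD and Ndufs1 was higher, where 2.22% of all genes were called. Comparisons of diet and of genotype share libraries, so their values are given side by side only. The genotype-by-diet interaction called no mitochondrial and no nuclear gene by edgeR, where 0.0208% of all genes were called. At an unadjusted p below 0.05 the counts were 1 and 3, and DESeq2 and limma voom each called 0 mitochondrial genes and 1 nuclear gene. Of all 14434 genes, DESeq2 called 47 and limma voom 16 in the interaction. The lack of an interaction call does not show that the genotype difference was the same on both diets.

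Subunit isoforms known from other tissues were mostly near 0. Outside the count table, 24 further genes of the second deposited table match the same symbols. Among them, Cox6b2, the testis form of a complex IV subunit, had 4, 4, 1 and 0 counts in WT chow, 2, 6, 5 and 0 in WT HFD, 33, 29, 57 and 39 in LKO chow and 47, 54, 15 and 53 in LKO HFD livers. Cox6b2 passed the filter on low counts in that table only through the LKO groups, so no fold change, p or statement on the separation of libraries is given. Its level, 1.82 ± 0.643 CPM in LKO chow and 1.88 ± 0.843 CPM in LKO HFD livers, stayed low. The muscle forms Cox6a2 and Cox8b had 197 and 71 counts in LKO HFD 2 and 17 and 28 counts in WT HFD 4, the libraries with skeletal muscle transcripts, and at most 4 and 5 counts elsewhere. Cox7a1, the heart and muscle form of subunit 7a, was also highest in LKO HFD 2, at 3.26 CPM against at most 1.55 CPM elsewhere. Ndufa4l2, a relative of Ndufa4 known from hypoxia, was the least abundant of the 92 genes per length, at 1.52 CPM per kb, and was not called. Cox4i2, the lung form of subunit 4, was at 0.146 ± 0.0985 CPM or less in each group, Cox7b2 at 0.053 ± 0.0795 CPM or less, and Cox8c was listed at 0 in all libraries.

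Genes that serve the respiratory chain without being subunits were read from lists chosen by function. The share called in either direction over all genes tested was 24.7% on chow and 17.9% on HFD, and on chow 34.3% without LKO chow 1 and 2 and 16.2% without LKO chow 3 and 4. Of 20 tested genes of mitochondrial RNA processing and stability, 2 rose and 4 fell on chow (30% called) and none rose and 5 fell on HFD (25% called). On chow 3 rose and 6 fell without LKO chow 1 and 2, and none rose and 5 fell without LKO chow 3 and 4. Lrpprc, which binds and stabilises mitochondrial mRNAs, was at 112 ± 12.9 CPM in WT chow, 68.5 ± 5.78 in LKO chow, 121 ± 6.59 in WT HFD and 83.1 ± 5.59 CPM in LKO HFD livers. It fell on both diets, by edgeR: on chow the log2 fold change was -0.71 with SE 0.0926 (adjusted p = 2.68e-05), and on HFD -0.54 with SE 0.0922 (adjusted p = 0.000501). Fastkd2, of a family of mitochondrial RNA-binding proteins, fell from 14.6 ± 0.908 to 7.58 ± 0.527 CPM on chow and was at 16.1 ± 0.871 and 9.16 ± 0.926 CPM on HFD. Its log2 fold changes were -0.95 (SE 0.0983, edgeR adjusted p = 2.33e-06) and -0.81 (SE 0.0969, edgeR adjusted p = 1.46e-05). Fastkd1 read -0.35 and -0.33, and Ptcd3, a pentatricopeptide protein of the mitochondrial ribosome, -0.65 and -0.71, all called by edgeR. The chow calls of Lrpprc, Fastkd2, Fastkd1 and Ptcd3 held without either pair of LKO chow libraries. The partner of Lrpprc, Slirp, was at 11.3 ± 3.67, 14.7 ± 4.46, 12.7 ± 2.64 and 14.3 ± 2.04 CPM in the same order of groups.

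Of 18 genes of mitochondrial DNA transcription and replication, 3 rose and 2 fell on chow (27.8% called) and 1 rose and 2 fell on HFD (16.7% called), shares near those of all genes. On chow 3 rose and 4 fell without LKO chow 1 and 2, and none rose and 1 fell without LKO chow 3 and 4. Tfb2m, a transcription factor needed to start mitochondrial transcription, was at 31.7 ± 2.36 and 23.1 ± 3.47 CPM on chow and at 31.9 ± 2.53 and 23.1 ± 1.39 CPM on HFD in WT and LKO livers. Its log2 fold changes were -0.45 and -0.47, with edgeR adjusted p of 0.00336 and 0.0034. Polg, the mitochondrial DNA polymerase, read -0.34 and -0.33 and was also called lower by edgeR. Without LKO chow 3 and 4, Tfb2m was at -0.30 and Polg at -0.18 on chow, and neither was called. Tfam, which packages mitochondrial DNA, was at 46.6 ± 1.18, 41.6 ± 4.12, 45.2 ± 2.28 and 46.0 ± 2.71 CPM in WT chow, LKO chow, WT HFD and LKO HFD livers and was not called, but was called lower on chow, at -0.26, without LKO chow 1 and 2. Of 18 regulators of respiratory genes, 2 rose and none fell by edgeR on chow (11.1% called), and 2 rose and 1 fell on HFD (16.7% called), neither share above that of all genes. On chow 1 rose and 6 fell without LKO chow 1 and 2, and 1 rose and none fell by edgeR without LKO chow 3 and 4. Esrra, an orphan nuclear receptor that drives such genes, rose from 32.4 ± 5.32 to 43.0 ± 3.11 CPM on chow and was at 36.7 ± 4.90 and 50.5 ± 5.73 CPM on HFD. Its log2 fold changes were 0.41 and 0.46 (SE 0.122 and 0.121, edgeR adjusted p = 0.0204 and 0.0123), and the chow call was lost, at 0.34, without LKO chow 3 and 4.

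Tricarboxylic acid cycle and pyruvate dehydrogenase genes feed the chain with NADH and succinate. Of 21 such genes, 1 rose and 9 fell on chow (47.6% called) and 1 rose and 7 fell on HFD (38.1% called). On chow none rose and 7 fell without LKO chow 1 and 2, and 1 rose and 6 fell without LKO chow 3 and 4. Their median log2 fold changes were -0.15 and -0.11. Suclg2, the GTP-forming beta subunit of succinyl-CoA synthetase, fell from 330 ± 17.4 to 191 ± 19.9 CPM on chow and was at 349 ± 15.4 and 221 ± 8.85 CPM on HFD. Its log2 fold changes were -0.78 (SE 0.0837, edgeR adjusted p = 3.11e-06) and -0.66 (SE 0.0836, edgeR adjusted p = 2.55e-05). Pdk1, a kinase that inactivates pyruvate dehydrogenase, was at 187 ± 41.2 and 36.3 ± 9.64 CPM on chow and 158 ± 6.97 and 33.2 ± 3.55 CPM on HFD, log2 fold changes of -2.37 and -2.25 (edgeR adjusted p = 1.07e-07 and 2.43e-07). Pdk4, the kinase of the fasted state, rose by 1.51 and 1.41, and Idh2 fell, at -0.60 and -0.70, all called by edgeR. Without LKO chow 1 and 2 the chow call of Pdk4 was lost, at 1.15, while those of Suclg2, Pdk1 and Idh2 held without either pair.

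Among the carriers, Slc25a3, which brings phosphate into the matrix for ATP synthase, fell from 289 ± 16.7 to 206 ± 5.61 CPM on chow and was at 288 ± 18.2 and 229 ± 9.73 CPM on HFD. Its log2 fold changes were -0.49 and -0.33 (edgeR adjusted p = 0.000155 and 0.00477). Ucp2, an inner membrane carrier of the uncoupling protein family, rose from 33.8 ± 7.47 to 155 ± 21.6 CPM on chow and was at 46.0 ± 3.25 and 149 ± 10.7 CPM on HFD, log2 fold changes of 2.20 and 1.69 (edgeR adjusted p = 7.83e-09 and 1.23e-07). These were the only calls among the 4 tested genes of that list of 7, and both chow calls held without either pair of LKO chow libraries.

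Of 45 assembly factors, 3 rose and 7 fell on chow (22.2% called) and none rose and 4 fell on HFD (8.89% called), both shares below those of all genes. On chow 7 rose and 9 fell without LKO chow 1 and 2, and 1 rose and 4 fell without LKO chow 3 and 4. Atpaf1, which helps assemble the F1 part of ATP synthase, read -0.59 and -0.71, Ttc19, of complex III, -0.53 and -0.72, and Bcs1l, which inserts the iron-sulphur protein of complex III, -0.47 and -0.38, all called by edgeR on both diets and, on chow, without either pair. Of 13 chaperones and proteases, 3 fell on each diet (23.1% called) and none rose, namely Trap1 (-0.68 and -0.64), Oma1 (-0.68 and -0.52) and Htra2 (-0.42 and -0.55). The chow call of Htra2 was lost, at -0.32, without LKO chow 1 and 2. Of 17 genes of electron carriers and ubiquinone synthesis, 1 rose and 1 fell on chow (11.8% called) and 1 rose and 2 fell on HFD (17.6% called), neither share above that of all genes. Etfdh, which passes electrons from fatty acid oxidation to ubiquinone, was called lower on both diets, at -0.51 and -0.47, and on chow was at -0.34 and not called without LKO chow 3 and 4. Of the 79 mitochondrial ribosomal protein genes, none was higher and 3 were lower by edgeR on chow, and 2 were higher and 1 lower on HFD, 3.80% on each diet and far below the shares of all genes. Without LKO chow 1 and 2, 16 were higher and 1 lower on chow.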

How the data were processed

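Per the labels' protocols, liver RNA was extracted with TRIzol, poly(A)-selected (NEBNext Ultra II) and read on a NovaSeq in pairs of 150 bases. The submitters' processing notes name mm10, Bowtie2 and DESeq2 without versions or roles. The counting tool, its annotation and its use of strand are not given in the sources used here. What the authors deposited are unnormalised estimated counts, also called expected counts, by gene symbol. Of the values, 51.1% were whole numbers (tolerance 1e-06), and all were rounded for the count models. A second deposited table of 35712 genes holds the same estimated counts, with its 8 chow columns 1 row too low. They were moved up by 1 row, after which 1 value differed from the count table.

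Genes were matched to GENCODE M21 (GRCm38), with 2 of the 92 found by a RefSeq synonym. Levels per kilobase used the median length of a gene's protein-coding transcripts, or of all its transcripts where none was protein coding. Copies were sought with BLAST+ 2.17.0 and counted as near-identical at an identity of at least 97% over at least 150 bases and 80% of the copy, at another locus. Differential expression used edgeR 4.0.16 (R 4.3.3) with TMM, filterByExpr, 1 mean per group over 16 libraries and robust quasi-likelihood fits. It left 14434 genes, tested 2-sided, with calls made where the Benjamini-Hochberg adjusted p lay below 0.05. Values in CPM are TMM-scaled, except those of cell type markers and of genes outside the count table. These were divided by the total of the library in the second table, without TMM. Standard errors were taken from the F statistic. The fit was tested on simulated counts, whose outcome is not given here and lends nothing to the values above. Total counts per library, 19142612 to 25120565, make counting error small for all but the rarest genes. DESeq2 1.42.0, limma voom 3.58.1, other scalings and filters, a replicate block and each library left out were the alternatives. Correlations of deviations between libraries of the same replicate number exceeded 0.1 in 5 of 24 pairs, and libraries were treated as unpaired.

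One nuclear gene of the set enters the counts, sums and fits and is not reported here. The genes, lists, tests and alternatives were chosen with earlier results of these data known. Named were all 13 mitochondrial genes, the called nuclear genes with the lowest p, the most abundant nuclear gene of each complex, tissue-specific isoforms, and up to 4 called genes per list with the lowest p. Ratios between mitochondrial genes, the analysis of copies, and Atp5g1, Atp5g3, Sdhb, Sdhc, Uqcr11, Tfam, Slirp and some of the called list members were added after the values were seen.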

Additional observations from a re-analysis of the deposited data

Results flagged for a closer look

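A library far from the other 3 of its group was flagged for 13 of 380 sets of 4 libraries, where chance flags about 5% of sets. Of these, 7 were genes high in WT HFD 2: Atp5l at 92.0 CPM, Cox6b1 at 121 CPM, Cox7b at 97.1 CPM, Ndufa11 at 46.6 CPM, Ndufs7 at 81.9 CPM, Uqcr10 at 74.4 CPM and Uqcrh at 86.7 CPM. In WT HFD livers, Ndufs1 was high in replicate 4, at 137 CPM. In LKO HFD livers, mt-Nd5 and Ndufs4 were low in replicate 4, at 2670 and 37.1 CPM, and Uqcr11 was high in replicate 3, at 97 CPM. The log2 ratio of mitochondrial to nuclear counts was high in WT chow 3, at 3.43 against 2.92 to 2.95, and the ratio of mt-Nd1 to mt-Nd2 was low in WT chow 1, at 0.746 against 0.954 to 0.969.

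Outside the count table, Cox6b2 had means of 1.82 CPM in LKO chow and 1.88 CPM in LKO HFD livers. It passed the filter on low counts only through the LKO groups, so no comparison with WT is made. The muscle subunits Cox6a2 and Cox8b had 197 and 71 counts in LKO HFD 2, where skeletal muscle markers summed to 437 CPM.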

How the results depend on the processing

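Counts of called genes are given for mitochondrial genes first and nuclear genes second. The reported counts for genotype were 2 and 8 on chow and 5 and 2 on HFD. Those for diet in LKO livers were 1 and 2, and those of the interaction 0 and 0. Of all 14434 genes tested, 3565 were called on chow, 2583 on HFD, 320 for diet in LKO and 3 in the interaction. DESeq2 called 5 nuclear genes for diet in LKO and 1 in the interaction, where it called 754 and 47 of all 14434 genes. Limma voom with quality weights called 1 and 14 on chow, 8 and 6 on HFD, 3 and 8 for diet in LKO and 1 nuclear gene in the interaction. Of all 14434 genes it called 3943, 4519, 2053 and 16 in the same order. A fit of only the groups compared called 0 and 1 on chow, 8 and 8 on HFD and 0 and 0 for diet in LKO. Over all genes, that fit called 2152 of 13954 on chow, 3618 of 14077 on HFD and 188 of 14139 for diet in LKO. Alternatives added after seeing the data moved more. Without LKO chow 1 and 2, the counts were 34 nuclear genes on chow, 8 mitochondrial genes on HFD, 9 and 15 for diet in LKO, and 4 and 3 in the interaction. Of all 14673 genes, 5036, 3311, 2768 and 1264 were called in the same order. The 3 mitochondrial genes then called on chow were higher, not lower. Without LKO chow 3 and 4 the counts were 10 and 2 on chow, 8 mitochondrial genes on HFD and 0 and 0 for diet in LKO. Of all 14647 genes, 2373, 3108 and 179 were called in the same order. Without the libraries with muscle transcripts the counts were 2 and 1 on HFD and 0 and 0 for diet in LKO. Of all 14527 genes, 1533 and 90 were called there. With copies added, 1 nuclear gene was called on HFD, and 0 and 1 for diet in LKO, where 2581 and 318 of all 14425 genes were called. Atp5g2 then turned to -0.12 on chow and to 0.01 for diet in LKO, and the HFD difference in log2 ratio moved to -0.22. The cause of the changes with other tools and groups was not tested. Fewer libraries in a group also leave fewer degrees of freedom.

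Leaving out 1 library at a time gave 1 to 5 mitochondrial and 1 to 9 nuclear calls on chow, 2 to 7 and 1 to 3 on HFD, 0 to 2 and 0 to 3 for diet in LKO, 0 and 0 to 1 in the interaction, and 0 for diet in WT. Over all genes tested, these fits called 2698 to 3919 on chow, 1977 to 2833 on HFD and 111 to 656 for diet in LKO. They called 0 to 9 in the interaction and 155 to 359 for diet in WT. Without LKO chow 4, the chow counts were 5 and 1, with 2905 of all genes called. Without LKO HFD 4 the HFD count was 2 mitochondrial genes, with 2034 of all genes called. On HFD, mt-Nd2 and mt-Nd4l kept their call with each library left out and under every other alternative run.

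Same-numbered libraries did not pair. A fit with the replicate number as a block called 3 mitochondrial genes on HFD and 1 nuclear gene for diet in LKO. It called 2330 and 231 of all 14434 genes there. Of 16 libraries, 3 correlated best with their own number. The estimated counts of genes with identical copies, and of neighbours that overlap in the genome, limit what those genes can show, whatever the depth.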
